A study of Homo sapiens with 18 samples.

Results

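The 44 genes described here encode proteins of S phase and DNA replication. They were taken by gene symbol from a table of 35616 genes, and all 44 were found in it. The cells are HUDEP-2, an erythroid progenitor line established from human umbilical cord blood, and HBBko, the same line with its beta-globin gene HBB disrupted, and all libraries are bulk RNA-seq. There were 6 groups of 3 libraries: HBBko undifferentiated, HBBko after 48 h and HBBko after 5 d of differentiation, and the unedited HUDEP-2 cells (WT) undifferentiated, after 48 h and after 5 d. All groups share the HUDEP-2 background. As a general property of the line, HUDEP-2 cells were immortalised with inducible papillomavirus E6 and E7, and E7 inactivates the retinoblastoma protein that restrains E2F factors. Whether the inducer was present at each stage, how many clones make up HBBko and which medium induced differentiation are not given in the sources used here. The labels speak of triplicates without saying that each was a separate culture, so the p values below measure the spread between these libraries, which may be technical. The series title links the loss of beta-globin to ATF4, MYB and gamma-globin, and the comparisons below ask what the replication genes did in the same cells.

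Replication is prepared in G1, when the origin recognition complex (ORC), CDC6 and CDT1 load the MCM2-7 helicase on DNA, and geminin (GMNN) stops reloading once S phase has begun. CDK2 with cyclin E, CDC45 and the GINS complex then switch the helicase on, DNA polymerase alpha with primase starts each strand, and polymerases delta and epsilon extend it on the PCNA clamp that the RFC complex loads. E2F transcription factors drive many of these genes as cells enter S phase. Erythroid precursors keep dividing while they accumulate haemoglobin, and leave the cell cycle before the nucleus is lost.

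The promoters are shown because E2F factors drive many of these genes. Whether the presence of the motif goes with the values that follow was not tested. RefSeq (GRCh38.p14) promoter windows, 250 bases before to 50 after the gene start, were at hand for 37 of the 44 genes. The E2F motif, searched as TTTCCCGC, TTTGGCGC, TTTCGCGC or TTTGCCGC on both strands with overlapping matches counted, was found in 18 of the 37 windows (48.6%). It was found in 3.33% of all 27305 promoter windows and in 4.38% of the 14896 windows of protein-coding genes. The CCAAT box (CCAAT, both strands) was in 54.1% of the 37 windows, in 35.7% of all windows and in 36.4% of those of protein-coding genes. The GC box (GGGCGG, both strands) was in 70.3%, 44.6% and 59.5%, so its excess was smaller beside protein-coding genes. The cell cycle homology region of G2 and mitosis promoters (TTTGAA or TTCGAA, both strands) was in 5.41% of the 37 windows, in 16.6% of all and in 13.3% of those of protein-coding genes. The 200 bases before the RefSeq gene start are printed 5′ to 3′ in the direction of the gene for 6 members, with E2F motif matches in capitals. E2F1, E2F2, MCM6 and PCNA hold matches, while CCNE1 and UNG hold none in these letters. Strong changes occurred with and without a match. Between highest and lowest group means, E2F2 spanned 16.9-fold, E2F1 4.74-fold, MCM6 1.8-fold and PCNA 1.31-fold, and of those without a match UNG 9.37-fold and CCNE1 4.92-fold.
E2F1: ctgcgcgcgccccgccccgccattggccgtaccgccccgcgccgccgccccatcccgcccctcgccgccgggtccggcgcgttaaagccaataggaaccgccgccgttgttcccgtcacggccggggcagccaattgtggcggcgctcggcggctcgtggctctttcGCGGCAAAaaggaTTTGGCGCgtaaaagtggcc
E2F2: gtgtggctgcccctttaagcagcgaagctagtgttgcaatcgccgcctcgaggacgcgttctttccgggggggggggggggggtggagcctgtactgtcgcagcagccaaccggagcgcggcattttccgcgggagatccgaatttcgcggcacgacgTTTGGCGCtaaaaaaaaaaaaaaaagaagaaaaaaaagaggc
MCM6: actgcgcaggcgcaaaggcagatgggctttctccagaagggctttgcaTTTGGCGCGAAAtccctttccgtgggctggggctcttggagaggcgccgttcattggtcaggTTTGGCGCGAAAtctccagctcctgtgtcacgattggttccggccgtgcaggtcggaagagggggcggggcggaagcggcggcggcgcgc
PCNA: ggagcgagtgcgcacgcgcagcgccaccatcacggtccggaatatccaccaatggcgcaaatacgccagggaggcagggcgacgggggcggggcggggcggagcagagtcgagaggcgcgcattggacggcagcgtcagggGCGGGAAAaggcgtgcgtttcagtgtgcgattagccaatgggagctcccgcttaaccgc
CCNE1: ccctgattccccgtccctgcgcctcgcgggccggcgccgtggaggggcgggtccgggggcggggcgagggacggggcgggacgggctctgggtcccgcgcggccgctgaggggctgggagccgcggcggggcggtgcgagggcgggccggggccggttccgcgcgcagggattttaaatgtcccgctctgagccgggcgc
UNG: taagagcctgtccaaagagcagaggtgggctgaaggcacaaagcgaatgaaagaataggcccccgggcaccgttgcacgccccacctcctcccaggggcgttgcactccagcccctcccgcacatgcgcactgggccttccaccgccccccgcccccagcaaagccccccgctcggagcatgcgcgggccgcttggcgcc
These stretches lie at chr20:33686386-33686585 on the minus strand (E2F1), chr1:23531234-23531433 on the minus strand (E2F2), chr2:135876444-135876643 on the minus strand (MCM6), chr20:5126623-5126822 on the minus strand (PCNA), chr19:29811791-29811990 on the plus strand (CCNE1) and chr12:109097397-109097596 on the plus strand (UNG). GENCODE v29, used for gene positions below, starts some genes further upstream, so 93 of these bases lie inside the GENCODE gene for CCNE1, 23 for UNG, 19 for E2F1 and 4 for PCNA. A match is a run of letters and not a measured binding site.

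Values are in scaled TPM, a length-corrected transcript level (TPM) that was also scaled between libraries, so levels of different genes are compared per length. How many reads lie behind a value is not known. HBB, the edited gene, checked the labels: its transcripts were at 4598, 4843 and 4983 scaled TPM in undifferentiated HBBko libraries and 12517, 12454 and 22376 in undifferentiated WT libraries, and were also lower in each HBBko library than in any WT library at 48 h and at 5 d. Replicate 3 of undifferentiated WT, with the highest HBB of its group, and replicate 3 of WT at 48 h stood apart from their groups. The share of all scaled TPM taken by globins was 1.62% to 1.78% in undifferentiated HBBko libraries and 2.28% to 3.84% in undifferentiated WT libraries. At 48 h it was 12.9% to 13.6% in HBBko libraries and 20.2% to 24.7% in WT libraries. At 5 d it was 38.6% to 39.9% in HBBko libraries and 50.5% to 52.1% in WT libraries, which matters for any value expressed as a share of the total. The 12 erythroid markers, which hold HBB and 2 alpha globin genes, were all detected in all groups. The 9 that are not globins summed to 2463 to 2605 scaled TPM in HBBko libraries and 2787 to 3550 in WT libraries before differentiation, 6368 to 6575 in HBBko libraries and 7186 to 8597 in WT libraries at 48 h, and 16260 to 16980 in HBBko libraries and 15510 to 15710 in WT libraries at 5 d. No lymphoid, stromal or endothelial marker reached 1 scaled TPM on average in any group, and the 8 myeloid markers summed to at most 5.36 scaled TPM in any library. Of the 7 megakaryocyte markers 1, ITGA2B, passed the filter on low values.

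All 44 genes averaged at least 1 scaled TPM in each of the 6 groups, and together they summed to 3788 to 3861 scaled TPM in undifferentiated HBBko libraries and 3868 to 4055 in undifferentiated WT libraries. At 48 h the sum was 4625 to 4695 in HBBko libraries and 4375 to 4581 in WT libraries, so HBBko lay above WT without overlap. At 5 d it was 5265 to 5437 in HBBko libraries and 5612 to 5677 in WT libraries, and HBBko lay below WT without overlap. As a percentage of all scaled TPM, however, the 44 genes took 0.451% to 0.470% in HBBko libraries and 0.376% to 0.385% in WT libraries at 5 d, so the order of the lines reversed. In bulk RNA, fewer cells in S phase and less RNA per cell cannot be told apart. The genes differed widely in how much they moved between groups. E2F2 spanned 16.9-fold between its highest and lowest group means, UNG 9.37-fold, CCNE2 6.01-fold, RRM2 5.31-fold, CCNE1 4.92-fold and E2F1 4.74-fold. At the other end PCNA spanned 1.31-fold, CDC45 1.27-fold and MCM7 1.15-fold.

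**Figure D1:**
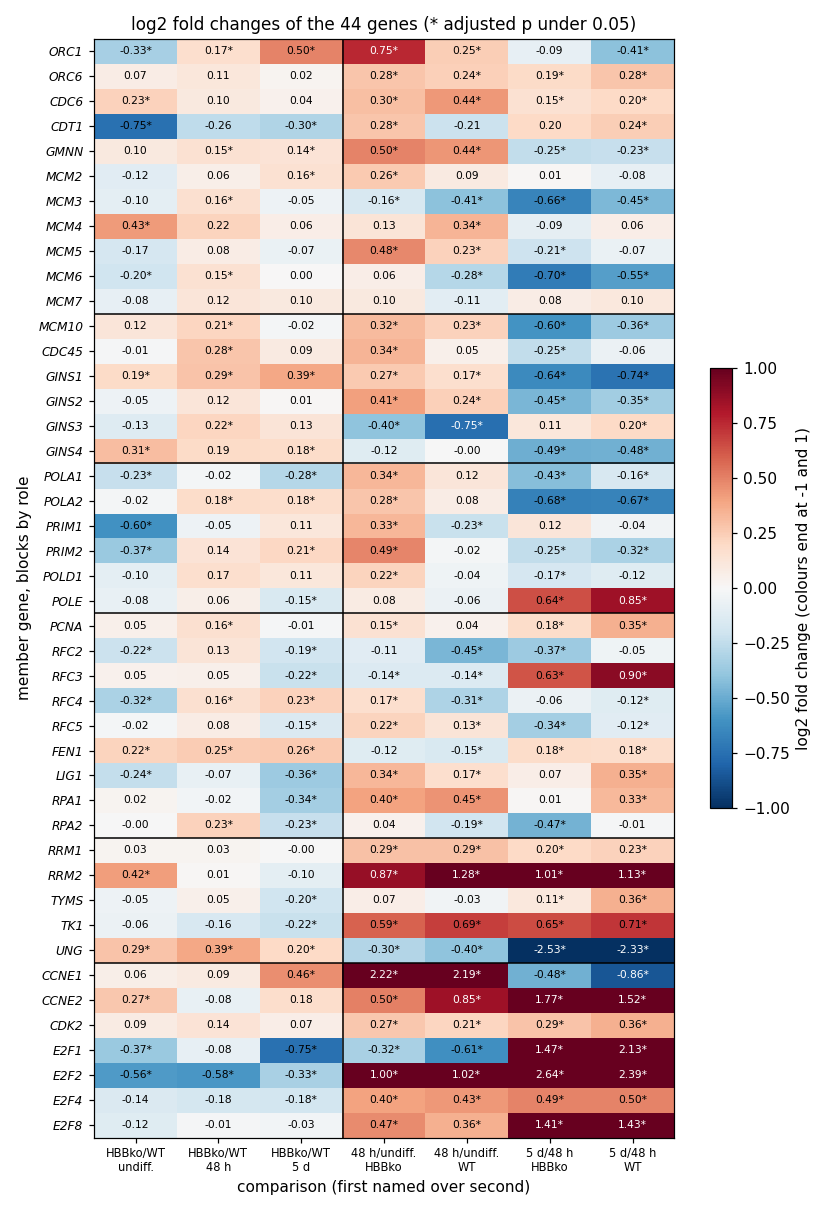
Log2 fold changes of the 44 genes (rows, in blocks by role) in 7 comparisons (columns), on the log2(scaled TPM + 1) scale, with an asterisk where limma's adjusted p was under 0.05. The HBBko against WT columns hold changes of at most 0.75 in size, while E2F2, E2F1, E2F8, CCNE2 and RRM2 at 5 d and CCNE1 at 48 h reach over 1 in the time columns.

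Undifferentiated HBBko cells differed from WT in both directions. Among those lower in HBBko were the licensing genes CDT1 and ORC1, the primase genes PRIM1 and PRIM2, and E2F1 and E2F2, while CDC6, another licensing gene, and MCM4, RRM2, GINS4 and UNG were higher. A log2 fold change here is a difference of mean log2(scaled TPM + 1), HBBko minus WT, with the standard error (SE) of a limma fit over all 18 libraries, and a gene was called at a Benjamini-Hochberg adjusted p under 0.05 over all 12005 tested genes. Of the 44 genes, 8 were called higher and 11 lower, where 43.3% of all tested genes were called in either direction, 20.9% higher and 22.3% lower. The members' share was therefore near the background. Their median log2 fold change was -0.05, against -0.01 over all tested genes. Each HBBko library lay above each WT library for 9 of the 44 genes and below for 13, where 22.8% of all tested genes lay above and 23.4% below. All 6 polymerase and primase genes had a negative value and 3 were called lower. When the 2 groups were fitted without the other libraries, 3 genes were called higher and 7 lower. Of all tested genes, 11.7% were then called higher and 12.3% lower. Without replicate 2 of undifferentiated WT, 17 of the 44 were called lower. For omissions of single libraries, here and below, the share of all tested genes was not computed.

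At 48 h the replication genes stood mostly above WT in HBBko. The helicase activators GINS1, CDC45, GINS3 and MCM10, the clamp PCNA, the nuclease FEN1 and the licensing genes ORC1, MCM3, MCM6 and GMNN were among those called higher. E2F2 was the gene called lower. In all, 14 of the 44 were called higher and 1 lower, where 18.7% of all tested genes were called, 9.52% higher and 9.21% lower. The median log2 fold change was 0.12, against 0.02 over all tested genes. For 27 of the 44 genes each HBBko library lay above each WT library, for 4 below (E2F2, CDT1, TK1 and E2F4), and for 13 the groups overlapped. Over all 12005 tested genes, 29.5% lay above and 22.4% below in this way. Libraries rescaled to equal sums, so that values become shares of all RNA, gave 30 of the 44 genes called higher and 1 lower, where 29.4% of all tested genes were then called higher. The changes were small, with 0.39 for UNG the largest rise. The count of 14 was 8 without replicate 1 or without replicate 2 of HBBko at 48 h, 24 with libraries weighted by their spread, and 23 when the 2 groups were fitted alone. Of all tested genes, 23.8% were called higher with these weights and 19.8% when the 2 groups were fitted alone. Single calls also rested on libraries of these groups: MCM10 was not called when any 1 of the 6 was left out, GINS3 without any HBBko library or replicate 1 or 2 of WT, MCM6 without any HBBko library or replicate 1 or 3 of WT, GMNN without replicate 1 or 2 of HBBko, and PCNA without replicate 3 of HBBko.

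At 5 d the genes were split again. Genes called lower in HBBko included 6 of the 9 clamp, clamp loader and fork genes (RFC2, RFC3, RFC5, LIG1, RPA1, RPA2), E2F1, E2F2 and E2F4, and the thymidylate genes TYMS and TK1, and of these all but LIG1, RPA1 and E2F1 had positive values with libraries rescaled to equal sums. Those called higher included ORC1, CCNE1, GINS1, FEN1 and RFC4. Over the 44 genes 11 were called higher and 14 lower, where 51.3% of all tested genes were called, 26.5% higher and 24.8% lower, and the median was 0.01 against 0.02 over all tested genes. Each HBBko library lay above each WT library for 16 of the 44 genes and below for 15, where 31.1% of all tested genes lay above and 28.7% below. The direction of many of these calls depends on how libraries are put on 1 scale. When libraries were rescaled to equal sums, so that values became shares of all RNA including globins, the median of all tested genes moved to 0.27 and 34 of the 44 genes were called higher and 1 lower. Of all tested genes, 54.3% were then called higher and 8.84% lower. Under that scaling 28 of the 44 genes lay above the median of all genes and 16 below it, against 21 and 23 on the deposited scale. Leaving out replicate 3 of WT at 5 d gave 7 genes called higher. Quantile normalization gave 14 called higher and 7 lower, where 27% of all tested genes were called higher and 22.9% lower. TK1 was not called without replicate 2 or 3 of HBBko or any WT library, nor RFC5 without replicate 1 of HBBko or replicate 2 of WT.

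**Figure D2:**
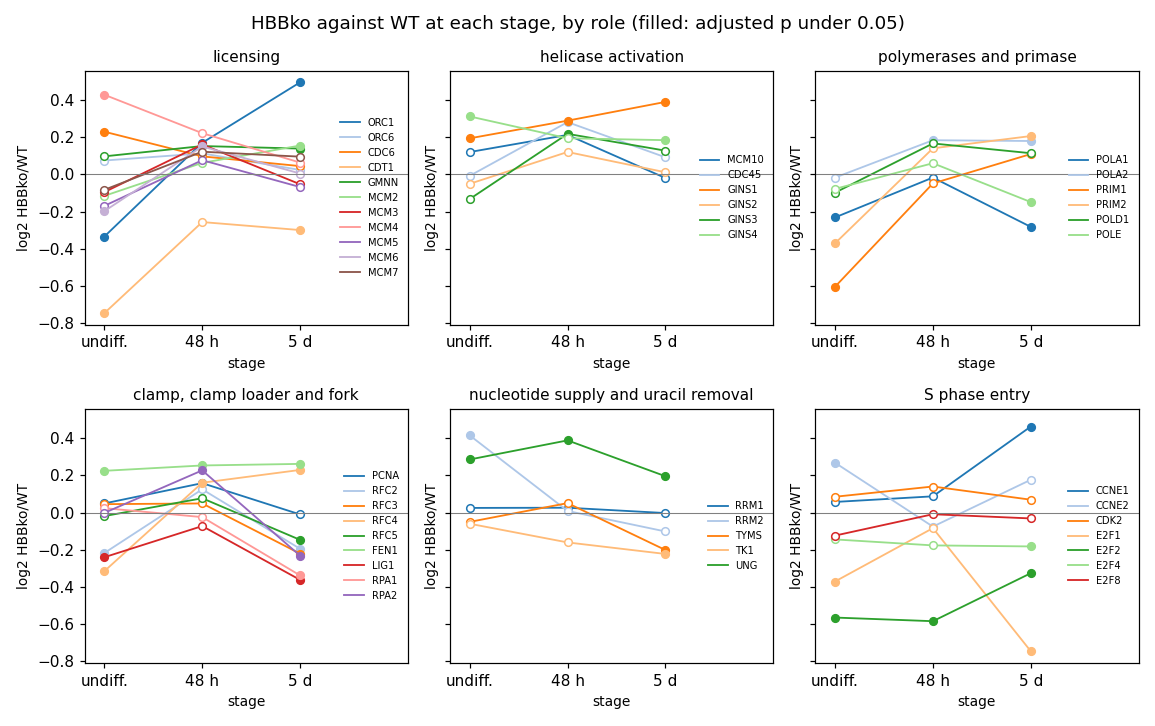
Log2 fold change of HBBko over WT (y axis) at each stage (x axis) for the 44 genes, in 6 panels by role, with filled points where limma's adjusted p was under 0.05. ORC1 runs upward from -0.33 to 0.50, CDT1 and E2F2 stay below 0 at each stage on the deposited scale, and RPA1, RPA2, LIG1 and E2F1 lie lowest at 5 d.

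Over the 3 stages, 8 genes were called at none, FEN1, GINS1 and UNG were called higher at all 3, and E2F2 was called lower at all 3. The share of all tested genes with such patterns was not computed, so these counts have no background. Of 17 alternatives, 10 kept the undifferentiated call of GINS1, 6 the 5 d call of UNG and 13 the 5 d call of E2F2. ORC1 and RFC4 were called lower in undifferentiated HBBko cells and higher at 48 h and at 5 d, although RFC4 at 48 h was not called without replicate 1 or 2 of either line. The authors' deposited table for each stage, made with their own test, gave the same sign for all of the 19, 15 and 25 genes called here at the undifferentiated stage, 48 h and 5 d, and a q value under 0.05 for 14, 15 and 24 of them.

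Among the licensing genes, CDT1 (chr16:88803213-88809258, plus strand, GRCh38, GENCODE v29, as for all genes below) showed the largest difference before differentiation. CDT1 helps load MCM2-7 and is destroyed in S phase. It measured 88.8, 89.0 and 94.9 scaled TPM in HBBko libraries and 157, 127 and 180.4 in WT libraries. The groups did not overlap, although the WT libraries ranged widely, and the log2 fold change was -0.75 ± 0.10 (SE), limma adjusted p = 2.36e-05. CDT1 stayed lower in mean at 48 h, with 115, 107 and 109 scaled TPM in HBBko libraries and 129, 126 and 141 in WT libraries, without overlap but short of the threshold (-0.26 ± 0.10 (SE), limma adjusted p = 0.0842). At 5 d the values were 132, 138 and 111 scaled TPM in HBBko libraries and 147, 166 and 156 in WT libraries and the log2 fold change was -0.30 ± 0.10 (SE), limma adjusted p = 0.0189. That call ended without replicate 3 of HBBko or without replicate 2 of WT at 5 d, and the value was 0.0355 with libraries rescaled to equal sums.

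GMNN encodes geminin, which binds and blocks CDT1, and it went the other way, with log2 fold changes of 0.15 at 48 h and 0.14 at 5 d (limma adjusted p = 0.0129 and 0.00751). The ratio of CDT1 to GMNN within a library was 1.06 ± 0.0132 in HBBko and 1.93 ± 0.344 in WT in undifferentiated cells (SD, n = 3 each). It was 0.908 ± 0.0289 in HBBko and 1.21 ± 0.0619 in WT at 48 h and 1.25 ± 0.160 in HBBko and 1.69 ± 0.118 in WT at 5 d. No HBBko library overlapped the WT libraries at any stage. This and the other ratios below were chosen after their values were seen, so they are given as description. In all, 12 ratios were computed at 3 stages, and the lines were separate in 23 of 36 comparisons. An exact permutation test of 3 libraries against 3 cannot give a p under 0.1. Its lowest Benjamini-Hochberg adjusted p over the 36 comparisons was 0.157.

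ORC1 (chr1:52372829-52404459, minus strand), the ORC subunit that human cells degrade during S phase, changed direction between stages. Undifferentiated cells had 30.1, 31.9 and 31.4 scaled TPM in HBBko libraries and 38.6, 40.5 and 39.5 in WT libraries, with HBBko below WT in every library (-0.33 ± 0.04 (SE), limma adjusted p = 1.16e-05). At 48 h the values were 51.8, 53.7 and 53.7 scaled TPM in HBBko libraries and 46.1, 47.3 and 47.9 in WT libraries, and HBBko was above WT in every library (0.17 ± 0.04 (SE), limma adjusted p = 0.00909). At 5 d they were 49.9, 49.4 and 50.7 scaled TPM in HBBko libraries and 34.0, 36.6 and 34.9 in WT libraries. The gap had widened to 0.50 ± 0.04 (SE), limma adjusted p = 5.81e-08, and all 3 calls held under each alternative processing tried. ORC6, another ORC subunit, was not called at any stage (0.07, 0.11 and 0.02), so the ratio of ORC1 to ORC6 was 0.716 ± 0.0419 in HBBko and 0.957 ± 0.00219 in WT undifferentiated and 0.825 ± 0.0314 in HBBko and 0.590 ± 0.0205 in WT at 5 d (SD, n = 3 each). At 48 h the lines overlapped in this ratio, with 1.00 ± 0.0415 in HBBko and 0.961 ± 0.0301 in WT.

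The 6 subunits of MCM2-7, the helicase core, assemble in equal numbers, but their transcripts differed and did not move together. MCM7 or MCM5 was highest and MCM6 lowest in every group. The highest exceeded the lowest 3.51-fold in HBBko and 3.24-fold in WT before differentiation, 3.73-fold in HBBko and 3.93-fold in WT at 48 h, and 6.18-fold in HBBko and 5.80-fold in WT at 5 d. MCM7 (chr7:100092728-100101940, minus strand) had 269, 275 and 281 scaled TPM in HBBko libraries and 289, 269 and 318 in WT libraries before differentiation. At 5 d it had 315, 305 and 311 scaled TPM in HBBko libraries and 285, 296 and 289.8 in WT libraries, and it was not called at any of the 3 stages (-0.08, 0.12 and 0.10). MCM4, on chromosome 8, had the largest called difference between lines among the 6, with 201, 219.7 and 194 scaled TPM in HBBko libraries and 167, 158 and 132 in WT libraries in undifferentiated cells. HBBko was higher there without overlap (0.43 ± 0.08 (SE), limma adjusted p = 0.000447), while the differences at 48 h (0.22) and 5 d (0.06) were not called. MCM6 was called lower before differentiation (-0.20) and higher at 48 h (0.15), MCM3 was called higher at 48 h (0.16) and MCM2 higher at 5 d (0.16). Of these calls, that of MCM6 at 48 h was lost without any HBBko library or replicate 1 or 3 of WT, and that of MCM2 without replicate 2 or 3 of HBBko or replicate 1 or 3 of WT.

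**Figure D3:**
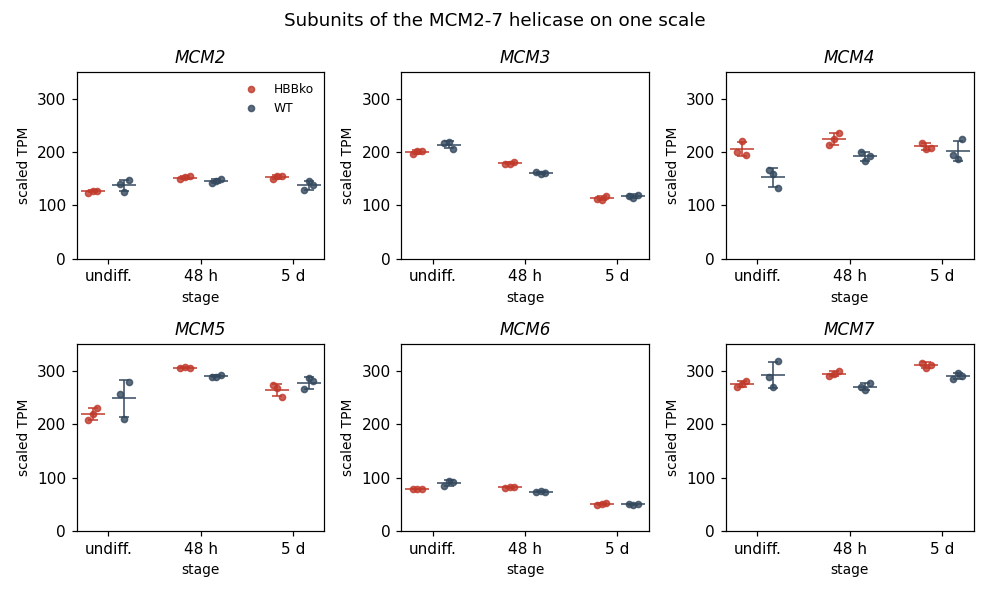
Levels of the 6 MCM2-7 subunits in scaled TPM (y axis, the same scale in each panel) by stage (x axis), with points for single libraries and bars for the mean ± SD of 3 libraries of HBBko (red, left) and WT (dark, right). MCM4 of undifferentiated HBBko cells lies above WT, and MCM3 and MCM6 are lowest at 5 d in both lines.

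Of the 6 helicase activation genes, 2 were called higher before differentiation, 4 at 48 h and 2 at 5 d, and none was called lower at any stage, where 20.9%, 9.52% and 26.5% of all tested genes were called higher. The 5 d count holds GINS4, whose call was lost in 9 of 17 alternatives, among them the omission of replicate 2 or 3 of HBBko or of any WT library. CDC45 (chr22:19479459-19520612, plus strand), the helicase cofactor with the highest level of this group, had 52.4, 56.9 and 55.6 scaled TPM in HBBko libraries and 57.0, 52.6 and 56.3 in WT libraries before differentiation, where it was not called (-0.01). At 48 h it had 69.8, 69.8 and 70.2 scaled TPM in HBBko libraries and 58.8, 56.5 and 56.8 in WT libraries, and HBBko exceeded WT in every library (0.28 ± 0.04 (SE), limma adjusted p = 0.000251). At 5 d it was not called (0.09). GINS1 (chr20:25407727-25452628, plus strand), a GINS subunit, was higher at each stage. Its values at 48 h were 21.5, 21.3 and 20.0 scaled TPM in HBBko libraries and 17.4, 17.1 and 16.4 in WT libraries (0.29 ± 0.07 (SE), limma adjusted p = 0.00717). At 5 d they were 13.3, 13.2 and 12.8 scaled TPM in HBBko libraries and 9.81, 10.6 and 8.87 in WT libraries (0.39 ± 0.07 (SE), limma adjusted p = 0.000151), and neither pair of groups overlapped. The undifferentiated GINS1 call (0.19) was lost in 7 of the 17 alternatives, among them each omission of an HBBko library and that of replicate 1 or 3 of WT. GINS4, on chromosome 8, had 41.2, 46.6 and 40.7 scaled TPM in HBBko libraries and 36.1, 37.4 and 29.8 in WT libraries before differentiation (0.31 ± 0.07 (SE), limma adjusted p = 0.00295), again without overlap. This call was lost when the 2 groups were fitted alone.

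Of the 6 polymerase and primase genes, 3 were called lower in HBBko before differentiation, where 22.3% of all tested genes were called lower. PRIM1 (chr12:56731596-56752373, minus strand), the catalytic primase subunit, had 32.5, 35.3 and 38.5 scaled TPM in HBBko libraries and 48.5, 58.9 and 56.0 in WT libraries. The HBBko libraries all lay below WT (-0.60 ± 0.07 (SE), limma adjusted p = 4.23e-06). PRIM2, the large primase subunit, was lower as well (-0.37), and so was POLA1, the catalytic subunit of polymerase alpha (-0.23). The POLA1 call was lost with equal sums and when the 2 groups were fitted alone. At 48 h PRIM1 was not called (-0.05), with 46.2, 44.8 and 43.2 scaled TPM in HBBko libraries and 44.5, 47.0 and 47.4 in WT libraries, and the libraries overlapped. At 5 d PRIM2 (0.21) and POLA2, the accessory subunit of polymerase alpha (0.18), were called higher, and POLA1 (-0.28) and POLE, the catalytic subunit of polymerase epsilon (-0.15), were called lower. With libraries rescaled to equal sums the POLA1 and POLE values at 5 d turned to 0.0293 and 0.18. The POLE call was also lost without replicate 3 of HBBko or replicate 1 or 2 of WT, and that of PRIM2 without replicate 3 of WT. POLD1, the catalytic subunit of polymerase delta and the most abundant of this group, was not called at any stage, with 121, 128 and 123 scaled TPM in HBBko libraries and 111, 117 and 116 in WT libraries at 5 d.

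PRIM1 shares 33 exonic bases on the same strand with NACA, a gene at 1150 scaled TPM on average, and 362 with AC117378.1. The library kit does not keep strand, so reads from shared or opposite exons cannot be told apart by strand. The longest exonic overlaps with another expressed gene were those of CCNE2 with INTS8 (1629 bases) and TYMS with ENOSF1 (967 bases). POLA2 shares 2012 exonic bases on the same strand with AP000944.2, and RRM2 shares 1077 with AC007240.1. The named pseudogenes of members were at or near 0, with a summed mean of at most 0.109 scaled TPM.

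PCNA (chr20:5114953-5126626, minus strand), the sliding clamp, was the most abundant gene of the clamp, clamp loader and fork group. At 48 h it had 369.6, 365 and 374 scaled TPM in HBBko libraries and 327, 327 and 339.7 in WT libraries, and HBBko was higher without overlap (0.16 ± 0.04 (SE), limma adjusted p = 0.0109); without replicate 3 of HBBko at 48 h this was no longer called. At 5 d the levels were 431, 409 and 420.2 scaled TPM in HBBko libraries and 428, 416 and 424 in WT libraries, the libraries overlapped and the gene was not called (-0.01). FEN1, the flap nuclease of lagging strands, was higher at each stage (0.22, 0.25 and 0.26, limma adjusted p = 0.00345, 0.00409 and 0.000737), and these calls held under each alternative.

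The single-strand binding protein genes and DNA ligase I were lower in HBBko at 5 d. RPA1 (chr17:1829702-1900082, plus strand), the large subunit of replication protein A, had 128, 121 and 124 scaled TPM in HBBko libraries and 156, 159 and 157 in WT libraries. All HBBko libraries lay below WT, with a log2 fold change of -0.34 ± 0.04 (SE), limma adjusted p = 5.64e-06. LIG1 (chr19:48115445-48170603, minus strand), which seals Okazaki fragments, had 114, 121 and 122 scaled TPM in HBBko libraries and 149, 156 and 155 in WT libraries. It was also lower without overlap (-0.36 ± 0.05 (SE), limma adjusted p = 9.33e-06). Both calls were lost with libraries rescaled to equal sums, where the values were -0.0027 for RPA1 and -0.0268 for LIG1. At 48 h neither gene had been called (-0.02 for RPA1 and -0.07 for LIG1). RPA2, the middle subunit, was higher in HBBko at 48 h (0.23) and lower at 5 d (-0.23). Of the RFC clamp loader genes, RFC2, RFC3 and RFC5 were called lower at 5 d (-0.19, -0.22 and -0.15) and RFC4 higher (0.23), and RPA2 and the first 3 had positive values with equal sums. RFC5 was not called without replicate 1 of HBBko or replicate 2 of WT.

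In the nucleotide supply group, RRM2 (chr2:10120698-10131419, plus strand), the S phase subunit of ribonucleotide reductase, had 201, 199 and 179 scaled TPM in HBBko libraries and 156, 147 and 130.5 in WT libraries before differentiation. HBBko was higher without overlap (0.42 ± 0.07 (SE), limma adjusted p = 0.000127). It was not called at 48 h (0.01) or at 5 d (-0.10), where the 5 d values were 709, 684 and 756 scaled TPM in HBBko libraries and 774, 772 and 757 in WT libraries. RRM1, the partner subunit, was not called at any stage, and the ratio of RRM2 to RRM1 before differentiation was 2.09 ± 0.00903 in HBBko and 1.59 ± 0.0814 in WT (SD, n = 3 each). The lines overlapped in this ratio at 48 h (3.12 ± 0.159 in HBBko and 3.16 ± 0.131 in WT) and at 5 d (5.48 ± 0.265 in HBBko and 5.87 ± 0.183 in WT). TYMS and TK1, which make thymidylate, were called lower in HBBko at 5 d (-0.20 and -0.22), and both turned positive with equal sums (0.14 and 0.11). UNG (chr12:109097574-109110992, plus strand), the glycosylase that removes uracil from DNA, was higher in HBBko at 48 h, with 43.2, 42.2 and 42.6 scaled TPM in HBBko libraries and 34.2, 33.4 and 29.7 in WT libraries. The groups did not overlap (0.39 ± 0.08 (SE), limma adjusted p = 0.00207). Its call at 5 d (0.20) was lost in 11 of 17 alternatives, among them the omission of replicate 1 or 3 of HBBko or of any WT library.

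The S phase entry genes E2F1, E2F2, E2F4, CCNE1 and CCNE2 were called at 1 or more stages. E2F2 (chr1:23506430-23531220, minus strand), an activating E2F, had 11.96, 11.6 and 11.9 scaled TPM in HBBko libraries and 16.7, 16.2 and 21.5 in WT libraries before differentiation, and HBBko was lower without overlap (-0.56 ± 0.10 (SE), limma adjusted p = 0.000408). At 48 h it had 24.0, 24.9 and 25.1 scaled TPM in HBBko libraries and 33.8, 33.6 and 46.3 in WT libraries (-0.58 ± 0.10 (SE), limma adjusted p = 0.00103). At 5 d it had 161, 154 and 165 scaled TPM in HBBko libraries and 206, 188 and 207 in WT libraries. The groups were separate there too (-0.33 ± 0.10 (SE), limma adjusted p = 0.0154), but the 5 d call was lost without replicate 2 of HBBko or replicate 3 of WT, and the value was 0.0098 with equal sums.

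E2F1 (chr20:33675683-33686404, minus strand), another activating E2F, showed its difference at 5 d, with 108, 94.7 and 96.6 scaled TPM in HBBko libraries and 177, 151 and 176 in WT libraries. The highest HBBko library was well below the lowest WT library (-0.75 ± 0.09 (SE), limma adjusted p = 6.01e-06), and the call held under each alternative, equal sums included. Before differentiation E2F1 was also lower in HBBko (-0.37), a call lost when the 2 groups were fitted alone, and at 48 h it was not called (-0.08). E2F4 (chr16:67192169-67198918, plus strand), a repressive E2F and the most abundant of the group, had 279.8, 261 and 295 scaled TPM in HBBko libraries and 322, 305 and 320.2 in WT libraries at 5 d. Its value of -0.18 was called, but the call was lost in 7 of 17 alternatives, including the omission of replicate 1 or 2 of HBBko or of replicate 1 or 3 of WT, and it was 0.15 with equal sums. The ratio of E2F1 to E2F4 was 0.299 ± 0.00369 in HBBko and 0.352 ± 0.0214 in WT before differentiation, 0.179 ± 0.00258 in HBBko and 0.169 ± 0.00540 in WT at 48 h and 0.359 ± 0.0289 in HBBko and 0.531 ± 0.0309 in WT at 5 d (SD, n = 3 each). HBBko was lower without overlap before differentiation and at 5 d, and higher without overlap at 48 h.

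CCNE1 (chr19:29811898-29824308, plus strand), cyclin E1, went against E2F1 and E2F2 at 5 d. It had 84.1, 97.4 and 102 scaled TPM in HBBko libraries and 66.0, 74.0 and 64.7 in WT libraries, with HBBko higher without overlap (0.46 ± 0.10 (SE), limma adjusted p = 0.00115). Before differentiation (0.06) and at 48 h (0.09) it was not called. Cyclin E2 (CCNE2, on chromosome 8) was called higher before differentiation (0.27), though not without replicate 2 of HBBko or replicate 1 or 3 of WT, and was not called at 5 d (0.18). CDK2, the kinase that both cyclins activate, and E2F8, a repressive E2F, were not called at any stage.

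**Figure D4:**
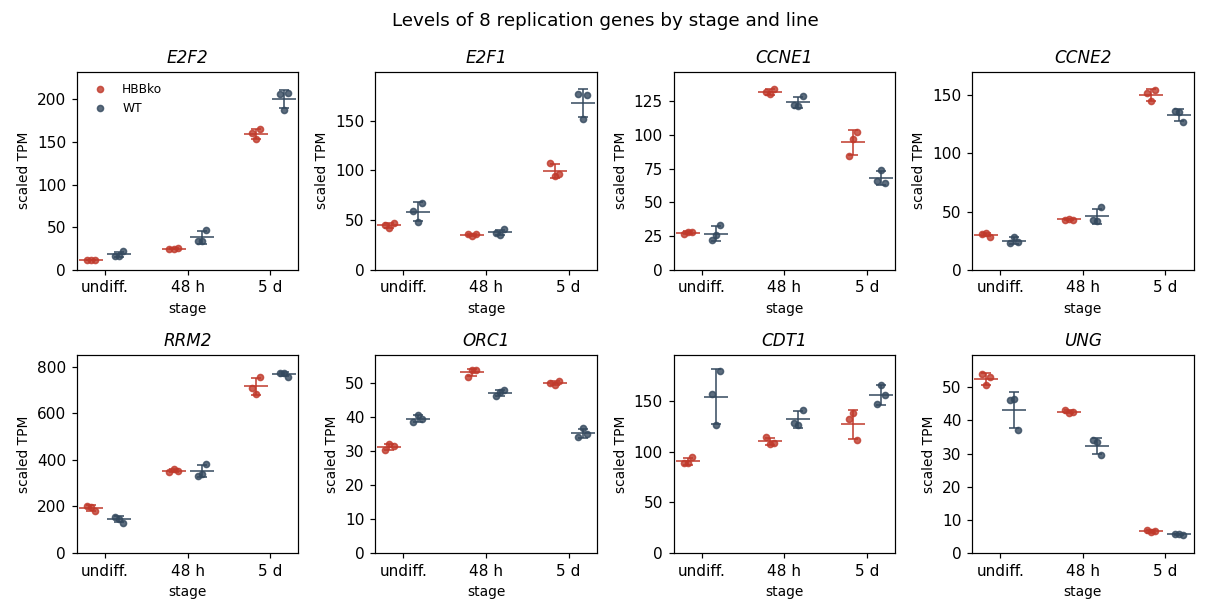
Levels of 8 replication genes in scaled TPM (y axis, from 0 in each panel) by stage (x axis), with points for single libraries and bars for the mean ± SD of 3 libraries of HBBko (red, left) and WT (dark, right). E2F2, E2F1, CCNE2 and RRM2 are highest at 5 d and UNG lowest, CCNE1 peaks at 48 h, and at 5 d E2F1 lies lower in HBBko than in WT.

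From the undifferentiated stage to 48 h, more of the 44 genes were called higher than lower in both lines on the deposited scale. Of the 44 genes, 30 were called higher and 5 lower at 48 h in HBBko, where 65.2% of all tested genes were called (25.1% higher, 40.1% lower). In WT 21 were called higher and 11 lower, where 64.9% of all were called (23.5% higher, 41.4% lower). The median log2 fold change of the 44 was 0.28 in HBBko and 0.10 in WT, against -0.09 and -0.10 over all tested genes. In both lines 20 genes were called higher and 5 lower, namely E2F1, GINS3, MCM3, RFC3 and UNG, where 17.6% of all tested genes were called higher and 33.6% lower in both lines. RFC3 was not called in HBBko without replicate 1 or 3 undifferentiated or replicate 2 or 3 at 48 h, nor in WT without replicate 2 undifferentiated or replicate 2 or 3 at 48 h, and in WT its adjusted p by limma was 0.0517 with a replicate block within the line. PRIM1 and RFC4 were called in opposite directions, higher in HBBko (0.33 and 0.17) and lower in WT (-0.23 and -0.31), as were 0.775% of all tested genes. CCNE1 changed most. It had 132, 130.2 and 134 scaled TPM in HBBko at 48 h, against 26.4, 28.2 and 28.3 undifferentiated. In WT it had 122, 122 and 129 at 48 h, against 22.0, 25.6 and 33.0 undifferentiated. The rise was 2.22 ± 0.10 (SE), limma adjusted p = 5.85e-12 in HBBko and 2.19 ± 0.10 (SE), limma adjusted p = 6.57e-12 in WT. RRM2 (0.87 in HBBko and 1.28 in WT) and E2F2 (1.00 and 1.02) followed. With equal sums the median of all tested genes was -0.18 in HBBko and -0.28 in WT, and in WT 10 of the 44 were called higher and 20 lower. Of all tested genes in WT, 13.3% were then called higher and 55.8% lower. Still, 36 of the 44 in HBBko and 31 in WT lay above the median of all genes.

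Between 48 h and 5 d the genes parted. In HBBko 16 were called higher and 18 lower at 5 d, where 79.7% of all tested genes were called (30.2% higher, 49.5% lower). In WT 20 were called higher and 15 lower, where 80.2% were called (30.8% higher, 49.5% lower). Both lines shared 16 genes called higher and 13 called lower, and none was called in opposite directions. Of all tested genes 25.6% were called higher in both lines, 44.1% lower in both and 1.42% in opposite directions. The E2F genes, CCNE2, RRM2, TK1, POLE and RFC3 were among those called higher, and MCM3, MCM6, MCM10, POLA1, POLA2, PRIM2 and GINS1, GINS2 and GINS4 among those that fell. In WT, E2F4 turned to -0.15 with equal sums, and POLA1 turned to 0.0083 with median-of-ratios rescaling and to 0.0904 with quantile normalization. The POLA1 call in WT was also lost without replicate 1 or 2 at 48 h or replicate 2 at 5 d.

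E2F2 had 161, 154 and 165 scaled TPM in HBBko at 5 d against 24.0, 24.9 and 25.1 at 48 h, and 206, 188 and 207 in WT at 5 d against 33.8, 33.6 and 46.3 at 48 h. That is a rise of 2.64 ± 0.10 (SE), limma adjusted p = 3.12e-13 in HBBko and 2.39 ± 0.10 (SE), limma adjusted p = 9.49e-13 in WT. E2F1 had 177, 151 and 176 scaled TPM in WT at 5 d against 37.4, 34.9 and 40.6 at 48 h (2.13 ± 0.09 (SE), limma adjusted p = 1.15e-12), and rose by 1.47 in HBBko. CCNE2 had 136, 136 and 127 scaled TPM in WT at 5 d against 42.4, 42.0 and 53.6 at 48 h (1.52 ± 0.08 (SE), limma adjusted p = 1.32e-11). None of these libraries overlapped between the times.

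UNG fell most. It had 7.002, 6.21 and 6.53 scaled TPM in HBBko at 5 d against 43.2, 42.2 and 42.6 at 48 h, so that 15.4% of the mean remained. In WT it had 5.65, 5.77 and 5.43 at 5 d against 34.2, 33.4 and 29.7 at 48 h, and 17.3% remained. The log2 fold change was -2.53 ± 0.08 (SE), limma adjusted p = 1.79e-14 in HBBko and -2.33 ± 0.08 (SE), limma adjusted p = 3.07e-14 in WT. CCNE1 in WT had 66.0, 74.0 and 64.7 scaled TPM at 5 d against 122, 122 and 129 at 48 h (-0.86 ± 0.10 (SE), limma adjusted p = 5.23e-07), and in HBBko it fell by 0.48. GINS1 in WT had 9.81, 10.6 and 8.87 scaled TPM at 5 d against 17.4, 17.1 and 16.4 at 48 h (-0.74 ± 0.07 (SE), limma adjusted p = 1.87e-08). With equal sums the median of all tested genes was -0.57 in HBBko and -0.70 in WT, and 35 of the 44 genes in HBBko and 36 in WT were called lower, with 8 and 7 called higher. Of all tested genes, 66.2% in HBBko and 71.6% in WT were then called lower, and 17% and 13.9% higher. E2F1, E2F2, E2F8, CCNE2, RRM2, POLE and RFC3 were called higher in both lines under each alternative. UNG, CCNE1, GINS1, GINS2, GINS4, MCM3, MCM6, MCM10 and POLA2 were called lower in both lines under each alternative.

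Whether the difference between lines changed with time was tested as an interaction. From the undifferentiated stage to 48 h, the HBBko minus WT difference became more positive for 10 of the 44 genes and more negative for 1, where 13.2% of all tested genes were called (7.67% and 5.51%). These were PRIM1 (0.56), PRIM2 (0.51), ORC1 (0.50), CDT1, RFC2, RFC4, GINS3, MCM3, MCM6 and CDC45, and RRM2 in the other direction (-0.41). The 10 became 20 with equal sums, 17 with library weights and 16 without replicate 2 of undifferentiated WT. Of all tested genes, 15.2% were called more positive with equal sums and 8.66% with library weights. CDT1 was no longer called without any HBBko library at 48 h, replicate 1 or 2 of undifferentiated HBBko, replicate 1 or 2 of WT at 48 h or replicate 3 of undifferentiated WT. GINS3 was no longer called without replicate 1 of undifferentiated HBBko, replicate 3 of HBBko at 48 h or replicate 1 or 2 of WT at 48 h. From 48 h to 5 d the difference became more negative for 12 genes and more positive for 1, where 24.6% of all were called (11.5% more positive, 13.1% more negative). E2F1 (-0.66), RPA2 (-0.46), RFC2 (-0.32), RPA1 (-0.31) and LIG1 (-0.29) led those that became more negative, and ORC1 (0.33) was the 1 that became more positive. The 12 became 7 without replicate 1 of HBBko or replicate 2 of WT at 48 h, and 2 with equal sums, where 9 were called more positive. With equal sums 24.9% of all tested genes were called more positive and 5.92% more negative.

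**Figure D5:**
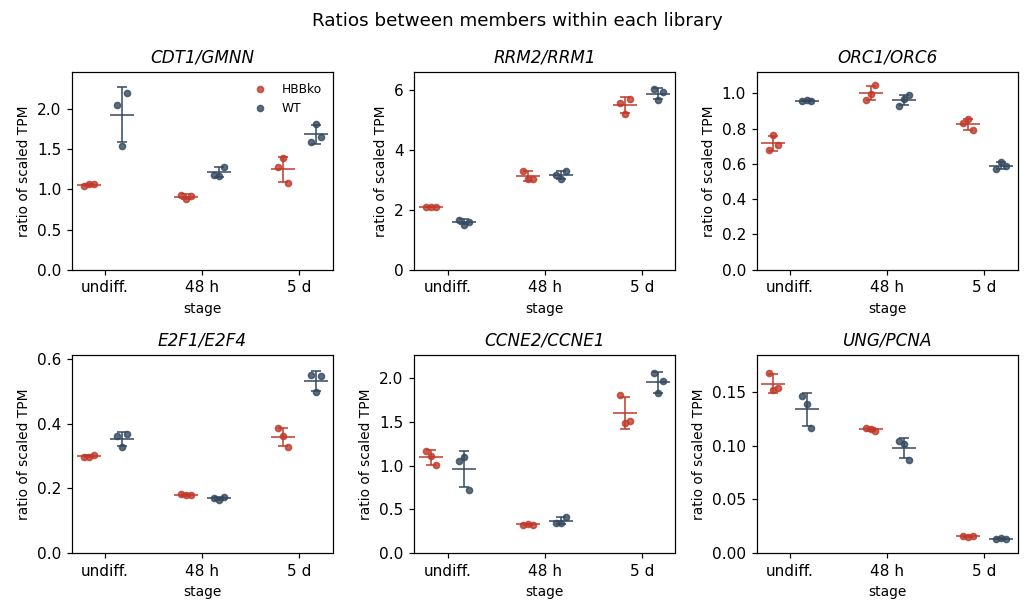
Ratios between pairs of replication genes within each library (y axis, ratio of scaled TPM from 0) by stage (x axis), with points for single libraries and bars for the mean ± SD of 3 libraries of HBBko (red, left) and WT (dark, right). CDT1/GMNN lies lower in HBBko at each stage, ORC1/ORC6 is lower in undifferentiated HBBko cells and higher at 5 d, and E2F1/E2F4 is lower in HBBko at 5 d.

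Ratios within a library do not change when the library is multiplied by 1 factor, as in the equal sums and median-of-ratios rescalings, and were not computed under quantile normalization. At 5 d the ratio of CCNE2 to CCNE1 was 1.60 ± 0.179 in HBBko and 1.96 ± 0.116 in WT, and that of POLE to POLD1 was 0.446 ± 0.0275 in HBBko and 0.536 ± 0.0430 in WT (SD, n = 3 each). Before differentiation the lines overlapped in both ratios, and at 48 h in that of POLE to POLD1. The ratio of UNG to PCNA was 0.158 ± 0.00872 in HBBko and 0.134 ± 0.0152 in WT before differentiation, 0.115 ± 0.00157 in HBBko and 0.0980 ± 0.00935 in WT at 48 h and 0.0157 ± 0.000550 in HBBko and 0.0133 ± 0.000538 in WT at 5 d. HBBko was higher than WT without overlap each time, and within each line the ratio at 5 d was the lowest.

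Another 54 genes of replication were read beside the 44. Of these, 8 were called higher and 11 lower in undifferentiated HBBko cells, 8 and 3 at 48 h, and 14 and 10 at 5 d. In either direction that was 35.2%, 20.4% and 44.4% of the 54, against 43.3%, 18.7% and 51.3% of all tested genes. The share called in either direction was therefore near or below the background at each stage. By direction, the 8 higher and 3 lower at 48 h stood beside 9.52% and 9.21% of all tested genes. There 40 of the 54 had positive and 14 negative values, against 6590 and 5410 of the 12005 tested genes. Their median log2 fold change at 48 h was 0.06, against 0.02 over all tested genes. POLD4, a small subunit of polymerase delta, was lower at each stage (-0.53, -0.42 and -0.58), and DCK, the deoxycytidine kinase, likewise (-0.28, -0.27 and -0.49). E2F5, a repressive E2F, was higher before differentiation (0.73) and at 48 h (0.39). The other genes with the largest called values before differentiation were CDC25A (0.40), the phosphatase that activates CDK2, and UHRF1 (0.39), which maintains DNA methylation, among those higher, and RPA3 (-0.43) and RBL2 (-0.35) among those lower. At 48 h they were SAMHD1 (0.51), which degrades deoxynucleotides, and TIPIN (0.49), a fork protection protein, among those higher, and TFDP1 (-0.24), the E2F partner, among those lower. At 5 d they were TIPIN (0.51), POLD2 (0.47) and DSCC1 (0.46) among those higher, and RB1 (-0.55), the retinoblastoma gene, among those lower.

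Of 20 genes of G2 and mitosis, none was called higher and 11 lower in undifferentiated HBBko cells, none and 4 at 48 h, and 12 and 1 at 5 d. Of all tested genes, 20.9% were called higher and 22.3% lower before differentiation, 9.52% and 9.21% at 48 h, and 26.5% and 24.8% at 5 d. These shares are the background for the other lists of this paragraph as well. TOP2A (-0.47), CENPE (-0.42) and KIF20A (-0.37) were lowest before differentiation, and CCNB1 (0.45), AURKA (0.43) and CCNB2 (0.34) were highest at 5 d. Among 7 CDK inhibitor genes, none was called higher and 3 lower before differentiation, 1 and 3 at 48 h, and none and 5 at 5 d. CDKN1A, which encodes the inhibitor p21, had 4.71, 3.25 and 2.91 scaled TPM in HBBko libraries and 15.5, 14.4 and 17.5 in WT libraries at 5 d. HBBko was far lower (-1.88 ± 0.15 (SE), limma adjusted p = 3.07e-08), while at 48 h it was higher (0.86). CDK6, a G1 kinase listed here as a progenitor marker, was lower at each stage (-0.80, -1.77 and -1.84), and another marker of that list, GATA2, was higher before differentiation (0.95), as was MYC at 5 d (0.70). Of the 6 progenitor markers tested, 3 were called higher and 2 lower in HBBko before differentiation, and 1 higher and 2 lower both at 48 h and at 5 d. Of the 12 erythroid markers, none was called higher and 9 lower before differentiation, none and 4 at 48 h, and 2 and 3 at 5 d. The median of their log2 fold changes was -0.38, -0.26 and 0.06. HBB, the edited gene, is 1 of those called lower each time. KLF1 and EPOR were called lower at each stage as well (-0.54, -0.46 and -0.39 for KLF1; -0.33, -0.34 and -0.33 for EPOR), while GATA1 was called lower before differentiation (-0.30) and was not called at 48 h (0.02) or 5 d (0.07). GYPB (0.58) and AHSP (0.30) were those called higher at 5 d. The part that differences in maturation play in the replication genes was not tested.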

How the data were processed

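RNA of 18 libraries, 3 in each of 6 groups, was sequenced, and groups were taken from the sample titles. Per the submitters' processing notes, kallisto, sleuth and hg38 were used; versions and the step that scaled libraries are not given in the sources used here. The authors deposited a signal per gene, called TPM in the table's name, whose library sums ran from 783213 to 1508342, so it had been scaled further and is called scaled TPM. The analysis had been planned for TPM-like values, and its test was kept. The depth is unknown, and precision comes from the spread between libraries. The column names thal and wen were read as HBBko and WT; this rests on the names, and at each stage all thal libraries held less HBB than any wen library. Per the file headers, the authors' tables of each stage hold log2 fold changes, p values and q values. Those 3 tables describe the authors' own comparisons.

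Genes reaching 1 scaled TPM in 3 or more libraries (12005 of 35616) were fitted as log2(scaled TPM + 1) in R 4.3.3 with limma 3.58.1 (a mean per group, eBayes with trend, 12 residual degrees of freedom), two-sided, with Benjamini-Hochberg adjustment over all tested genes in each of 9 comparisons. The steps were tested on simulated data. The 44 genes, the other lists and the comparisons were chosen with earlier results of these data known. Library values are given for the 3 members with the largest called change in each direction in each HBBko against WT comparison, the highest member of each role and the 3 with the largest change in each direction between 48 h and 5 d in WT; other members named were chosen after their values were seen. Alternatives were the pseudocount, the filter, 4 rescalings (equal sums, equal sums without globins, median of ratios, quantile), library weights, a fit of the compared groups alone, a replicate block and the omission of each library. Replicate numbers paired the libraries, with every same-numbered pair over 0.1 in the correlation of deviations from the group means, for HBBko against WT undifferentiated (0.121 to 0.173) and at 5 d (0.131 to 0.18) and for WT at 48 h over undifferentiated (0.102 to 0.194), not for the other 4 pairs of groups compared; this is a pattern in the data, as the labels give no shared batch. A block within these pairs was added after seeing the data. Gene positions are from GENCODE v29 (GRCh38).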

Additional observations from a re-analysis of the deposited data

Results flagged for a closer look

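For 24 results the HBBko minus WT difference of a replication gene differed between stages by limma's interaction test, fitted over all 18 libraries with Benjamini-Hochberg adjustment over 12005 genes. Each value is the change of the log2 difference between the stages. From the undifferentiated stage to 48 h it was 0.56 for PRIM1, 0.51 for PRIM2, 0.50 for ORC1, 0.49 for CDT1, 0.48 for RFC4, 0.35 for GINS3, 0.35 for MCM6, 0.34 for RFC2, 0.29 for CDC45, 0.26 for MCM3 and -0.41 for RRM2. PRIM1, PRIM2, CDT1, ORC1, RFC4, MCM6 and RFC2 were called lower in undifferentiated HBBko cells. Of these, ORC1, RFC4 and MCM6 were called higher at 48 h, although omissions of single libraries ended the 48 h calls of RFC4 and MCM6.

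From 48 h to 5 d it was 0.33 for ORC1 and negative for the other 12 genes. These were E2F1 with -0.66, RPA2 with -0.46, RFC2 with -0.32, RPA1 with -0.31, LIG1 with -0.29, RFC3 with -0.27, POLA1 with -0.27, TYMS with -0.25, RFC5 with -0.22, MCM3 with -0.21, CDC45 with -0.19 and PCNA with -0.17. Leaving out single libraries ended the calls of RFC3, RFC5, CDC45, PCNA and POLA1, and did not end those of the other 8. For each of these 5, omitting replicate 1 of HBBko at 48 h or replicate 2 of WT at 48 h was enough. The globin share was lower in HBBko than in WT at each stage, as given with the library totals, and its part in these changes was tested only by the rescalings described next.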

How the results depend on the processing

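The choice of scale mattered most. With libraries rescaled to equal sums, the members called higher in HBBko were 30 at 48 h and 34 at 5 d, with 1 lower at 5 d. Of all tested genes, 29.4% were then called higher at 48 h and 54.3% at 5 d, with 8.84% lower at 5 d. At 48 h over undifferentiated, 8 were lower in HBBko, and 10 were higher and 20 lower in WT. There 46.7% of all tested genes were lower in HBBko, and 13.3% were higher and 55.8% lower in WT. At 5 d over 48 h, 8 were higher and 35 lower in HBBko, and 7 were higher and 36 lower in WT. Here 17% of all tested genes were higher and 66.2% lower in HBBko, and 13.9% and 71.6% in WT. The first interaction had 20 more positive and 0 more negative members, and the second 9 and 2. Among all tested genes these shares were 15.2% and 2.77% in the first, and 24.9% and 5.92% in the second. Equal sums also turned 34 single values round. For HBBko over WT at 5 d these were 0.0355 for CDT1, 0.0293 for POLA1, 0.18 for POLE, 0.13 for RFC2, 0.11 for RFC3, 0.18 for RFC5, 0.10 for RPA2, 0.14 for TYMS, 0.11 for TK1, 0.0098 for E2F2 and 0.15 for E2F4. For WT at 48 h over undifferentiated they were -0.0238 for GINS1, -0.0737 for RFC5 and -0.0365 for LIG1. For HBBko at 5 d over 48 h they were -0.26 for ORC6, -0.29 for CDC6, -0.27 for PCNA, -0.26 for FEN1, -0.25 for RRM1, -0.34 for TYMS and -0.16 for CDK2. For WT at 5 d over 48 h they were -0.36 for ORC6, -0.43 for CDC6, -0.40 for CDT1, -0.41 for GINS3, -0.29 for PCNA, -0.46 for FEN1, -0.29 for LIG1, -0.32 for RPA1, -0.41 for RRM1, -0.29 for TYMS, -0.28 for CDK2 and -0.15 for E2F4. The second interaction of PCNA became 0.0268. Median-of-ratios rescaling turned POLA1 (0.0083), RFC4 (0.0551) and RFC5 (0.0612) round in WT at 5 d over 48 h, and quantile normalization POLA1 there (0.0904) and TYMS in HBBko (-0.0127). The cause was not tested beyond the construction of each scale.

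Equal sums without globins gave 3 members lower at 48 h in HBBko over WT, 3 lower in HBBko and 7 lower in WT at 48 h over undifferentiated, and 2 more positive and 6 more negative in the second interaction. Among all tested genes the shares were, in the same order, 9.95%, 34.4%, 33.4%, 12.9% and 10.9%. Median-of-ratios rescaling gave 2 lower in HBBko and 7 lower in WT at 48 h over undifferentiated, and 2 more negative in the first interaction. The shares of all tested genes were 33%, 31.6% and 6.32%. Quantile normalization gave 2 lower at 48 h and 7 lower at 5 d in HBBko over WT, 3 lower in HBBko at 48 h over undifferentiated, 2 more negative in the first interaction and 6 in the second. Among all tested genes these were 9.62%, 22.9%, 30.3%, 7.22% and 11%. Library weights gave 24 higher and 4 lower at 48 h, 17 more positive and 2 more negative in the first interaction, and 2 more positive in the second. Here the shares of all tested genes were 23.8%, 19.4%, 8.66%, 6.71% and 19.3%. The fit of the compared groups alone gave 3 higher and 7 lower undifferentiated, 23 higher and 4 lower at 48 h, 7 lower in WT at 48 h over undifferentiated, and 2 more positive in the second interaction. Its shares of all tested genes were 11.7%, 12.3%, 19.8%, 15.8%, 35.5% and 16.7%.

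Same-numbered libraries deviated together (every correlation of deviations over 0.1) in 3 of 7 comparisons. A block within those pairs of groups, added after seeing the data, ended the call of RFC3 in WT at 48 h over undifferentiated and no other. In the other comparisons the libraries share only a number. A replicate block over all groups gave 2 members lower at 48 h in HBBko over WT and 2 more positive in the second interaction, where 10.2% and 12.4% of all tested genes were so called.

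Leaving out 1 library at a time gave 7 to 10 members higher and 11 to 17 lower undifferentiated, 8 to 12 higher and 1 lower at 48 h, and 7 to 10 higher and 10 to 12 lower at 5 d in HBBko over WT. At 48 h over undifferentiated it gave 29 to 30 higher and 4 to 5 lower in HBBko, and 19 to 21 higher and 9 to 13 lower in WT. At 5 d over 48 h it gave 13 to 16 higher and 16 to 18 lower in HBBko, and 19 to 20 higher and 13 to 14 lower in WT. The first interaction had 8 to 16 more positive and 1 to 2 more negative members, and the second 1 to 2 and 7 to 11. The shares of all tested genes under these omissions were not computed, so these counts have no background. Of 219 calls of single members, 118 kept direction and call under all of these alternatives. With no read counts, no depth limit can be set for the low members.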
